A study of Homo sapiens with 24 samples.

Results

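The miR-23/24/27 clusters are a pair of related microRNA (miRNA) clusters, miR-23a/27a/24-2 and miR-23b/27b/24-1, and their mature miRNAs were described in OV90 cells, an established epithelial ovarian cancer cell line. The members were chosen by name, as the 8 rows hsa-miR-23a-3p, hsa-miR-23b-3p, hsa-miR-24-3p, hsa-miR-24-2-5p, hsa-miR-27a-3p, hsa-miR-27a-5p, hsa-miR-27b-3p and hsa-miR-27b-5p of a table of 2656 mature miRNAs. Of these, 4 come from the miR-23a cluster alone and 3 from the miR-23b cluster alone, while miR-24-3p comes from both. The study asked how the NF-κB subunits RELA and RELB alter miRNAs in cells grown attached or as spheroids, the condition it uses to enrich tumor-initiating cells (TICs). Small RNA libraries were made from 6 groups of 4 replicates, with an inducible shRNA against RELA (shRELA), one against RELB (shRELB) or a negative control (shNeg), in adherent and in spheroid culture alike. Adherent cells were kept in an RPMI medium with tetracycline-free serum, and spheroids in ultra-low attachment vessels in serum-replaced DMEM-F12 with EGF and FGF, so attachment and medium differ together between the cultures. All 6 groups, the shNeg cells included, received 1 µg/ml doxycycline for 72 h to switch on the shRNA. The labels give the genotype of the shNeg cells as Wildtype, and their titles give Neg. All groups derive from a single cell line, the labels do not say whether an shRNA line was a clone, and the miRNA libraries do not read RELA or RELB mRNA, so silencing could not be checked in them.

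A miRNA is cut from a hairpin in a longer primary transcript, and either arm of the hairpin (5p or 3p) can be kept in the silencing complex, where the seed at its 5′ end pairs with target mRNAs. Hairpins that lie close together are usually transcribed as 1 primary transcript, so clustered miRNAs share a promoter but can still differ in processing and in stability. The miR-23a and miR-23b clusters are paralogs, which give miR-23 and miR-27 forms with nearly the same sequence and an identical miR-24-3p. In other systems, miR-23a and miR-23b are known for repressing glutaminase, miR-24 for repressing cell cycle genes, and miR-27 for acting on lipid metabolism and blood vessel growth.

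The mature sequences of the arms that carry the cluster comparison are shown because miR-23 and miR-27 3p paralogs differ only at their 3′ ends. They were taken from RefSeq on GRCh38.p14, in which 8 of the 8 members were matched, and capitals mark the seed, bases 2 to 8 from the 5′ end.
miR-23a-3p: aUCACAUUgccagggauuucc
miR-23b-3p: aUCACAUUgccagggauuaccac
miR-27a-3p: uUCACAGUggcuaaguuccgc
miR-27b-3p: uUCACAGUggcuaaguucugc
miR-24-3p: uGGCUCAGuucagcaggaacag
miR-27a-5p: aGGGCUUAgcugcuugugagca
miR-27b-5p: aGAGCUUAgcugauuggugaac
The miR-23 paralogs share their seed and differ by U19A among 21 compared bases, counted from 1 at the 5′ end with the miR-23a-3p base given before the position, and miR-23b-3p is 23 bases long against 21. The miR-27 paralogs likewise share their seed and differ by C19U alone, with the miR-27a-3p base given before the position. The 5p arms of miR-27 differ at 8 of 22 bases, and G3A lies within their seed, so these arms do not share one. A read of a miR-23 or miR-27 3p arm that stops before base 19 cannot be assigned to 1 paralog. How such reads were counted is not given in the sources used here. The counts of miR-24-3p, which both clusters encode, were not whole numbers in 12 libraries, and cannot be split between the clusters.

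The miR-23a cluster lies on the minus strand of chromosome 19 (chr19:13836287-13836659, GRCh38.p14) within an exon of the long non-coding RNA MIR23AHG, and spans 373 bases. Within it, miR-23a-3p lies at chr19:13836595-13836615, miR-27a-5p at chr19:13836487-13836508, miR-27a-3p at chr19:13836447-13836467, miR-24-2-5p at chr19:13836326-13836347 and a copy of miR-24-3p at chr19:13836289-13836310. The miR-23b cluster lies on the plus strand of chromosome 9 (chr9:95085208-95086088) within the protein-coding gene AOPEP and spans 881 bases. There, miR-23b-3p lies at chr9:95085265-95085287, miR-27b-5p at chr9:95085463-95085484, miR-27b-3p at chr9:95085505-95085525 and the other copy of miR-24-3p at chr9:95086064-95086085. The hairpins MIR23B and MIR27B are intronic, and MIR24-1 overlaps an exon of an AOPEP transcript. Both clusters have the order miR-23, miR-27, miR-24 along their strand, and the gap before the miR-24 hairpin is the longer one in the miR-23b cluster.

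**Figure D1:**
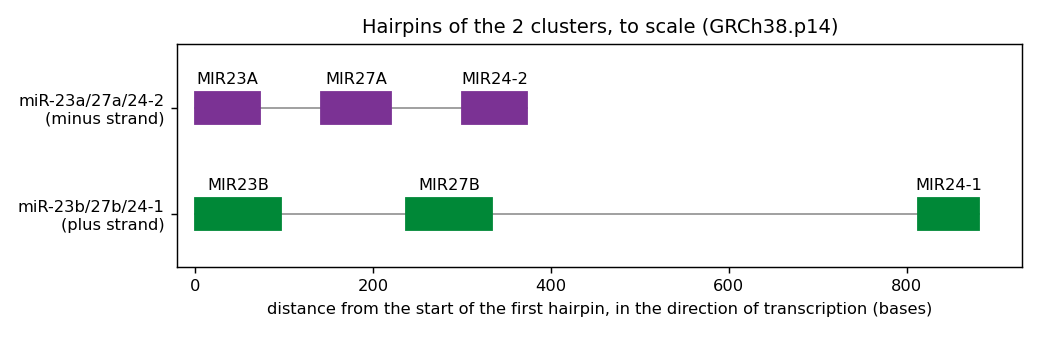
Hairpins of both clusters drawn to scale, with the distance in bases from the start of the miR-23 hairpin on the horizontal axis. The miR-24 hairpin starts 300 bases along in the miR-23a cluster and 813 bases along in the miR-23b cluster.

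Levels are given as CPM, the counts of a miRNA relative to all counts of its library, scaled by the TMM method to set the libraries on a common scale. The libraries held 3797175 to 8283549 counts in adherent culture and 959141 to 3580931 in spheroid culture, so that 3 counts, the limit that a count of 0 allows, were worth 0.495 to 0.8 CPM and 0.860 to 2.29 CPM. These limits cover counting error only. Replicate 1 of the spheroid shNeg group stood apart, in that 432 miRNAs had a count there, where the rest of its group had 813 to 885, and the members took 0.142% of its counts, where they took 0.449% to 0.503% in the rest. It was kept in the values given, and where a member's log2 fold change or ratio is set against the spheroid shNeg group, values without that library are added. Nothing in the labels says that replicates were separate cultures, so the tests may measure technical spread only. As CPM is a share of a library, fewer cells that make a miRNA and less of it per cell cannot be told apart.

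Among the arms that the miR-23a cluster alone encodes, hsa-miR-23a-3p had the highest CPM. In adherent culture, the miR-23a-3p level was 2728, 2748, 2405 and 2309 CPM in the shNeg libraries, 1993, 1991, 1770.4 and 2414 CPM in the shRELA libraries and 3032, 2899, 2402 and 2455 CPM in the shRELB libraries. In spheroid culture it was 178, 541, 698 and 735 CPM with shNeg, 824, 738, 769 and 735 CPM with shRELA and 1039, 1080.3, 1624 and 969 CPM with shRELB. The 12 spheroid libraries all lay below the 12 adherent ones. The order of the group means was adherent shRELB, adherent shNeg, adherent shRELA, spheroid shRELB, spheroid shRELA and spheroid shNeg, and among neighbours in it the adherent groups overlapped while the others did not, though the highest shNeg spheroid (735.0 CPM) and the lowest shRELA spheroid (735.3 CPM) nearly met.

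The guide arm of the next hairpin, hsa-miR-27a-3p, was present at a far lower CPM. Adherent shNeg libraries held 263, 385, 288 and 267 CPM of miR-27a-3p, shRELA libraries 202, 187, 130.5 and 266 CPM and shRELB libraries 245, 286, 229.8 and 232 CPM. Spheroid libraries held 39.6, 99.3, 113 and 98.98 CPM with shNeg, 91.8, 98.2, 79.2 and 91.2 CPM with shRELA and 234, 155, 183 and 124 CPM with shRELB. The means ran from 301 ± 56.9 CPM (SD, n = 4) in adherent shNeg cells to 87.8 ± 32.8 CPM in spheroid shNeg cells. Spheroid shRELB libraries lay above the other spheroid libraries with no overlap, and overlapped the adherent shRELA libraries.

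The opposite arm, hsa-miR-27a-5p, had a different order. For miR-27a-5p, adherent libraries gave 27.4, 17.6, 24.2 and 29.9 CPM with shNeg, 20.3, 23.3, 28.6 and 26.8 CPM with shRELA and 53.2, 55.7, 49.3 and 73.1 CPM with shRELB. The spheroid values were 0, 8.4, 15.9 and 14.04 CPM with shNeg, 19.2, 21.5, 12.1 and 20.1 CPM with shRELA and 30.6, 31.9, 25.1 and 30.7 CPM with shRELB. It was highest with shRELB in both cultures, and the adherent shRELB libraries overlapped no other group. The adherent shNeg and adherent shRELA means, 24.8 ± 5.32 and 24.7 ± 3.68 CPM (SD, n = 4), did not differ beyond their spread. No read of it was counted in spheroid shNeg replicate 1, which had a floor of 2.20 CPM.

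In the miR-23b cluster, hsa-miR-23b-3p had the highest mean CPM of all members in adherent shNeg cells. In adherent culture, the miR-23b-3p level was 3630.5, 3840.0, 3316 and 3207 CPM in the shNeg libraries, 2312, 2286, 2007 and 2733 CPM in the shRELA libraries and 1579, 1599, 1437 and 1357 CPM in the shRELB libraries. In spheroid culture it was 255, 616, 814 and 847 CPM with shNeg, 1129.8, 1306, 1238 and 1205 CPM with shRELA and 1005, 880.5, 1213 and 763 CPM with shRELB. The 3 adherent groups stood in the order shNeg, shRELA, shRELB with no overlap between neighbours. Among spheroids the order was shRELA, shRELB, shNeg, and each of these overlapped the next.

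The levels of hsa-miR-27b-3p, the guide arm of its hairpin, had the same order in adherent culture. Adherent shNeg libraries held 3071, 3146, 3136 and 2792 CPM of miR-27b-3p, shRELA libraries 2477, 1963, 1609 and 2663 CPM and shRELB libraries 1374, 1455, 1589 and 1456 CPM. Spheroid libraries held 464, 1026, 1041 and 1037 CPM with shNeg, 926, 1248, 1146 and 1339.9 CPM with shRELA and 1054, 1075, 1576 and 1225 CPM with shRELB. Again the 3 adherent groups did not overlap. The 3 spheroid groups and the adherent shRELB group did overlap with their neighbours in the order of means.

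The hsa-miR-27b-5p arm was scarce. For miR-27b-5p, adherent libraries gave 24.5, 32.8, 22.8 and 22.3 CPM with shNeg, 13.5, 17.2, 11.05 and 13.1 CPM with shRELA and 13.4, 10.3, 11.8 and 6.44 CPM with shRELB. The spheroid values were 0, 12.98, 3.59 and 3.51 CPM with shNeg, 3.75, 7.88, 9.85 and 12.2 CPM with shRELA and 4.74, 8.65, 7.44 and 5.45 CPM with shRELB. The adherent shNeg libraries lay above all others, and every other neighbouring pair of groups overlapped. In spheroids its counts were 0 to 32 per library, so its spheroid values rest on few reads.

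The shared arm hsa-miR-24-3p had levels close to those of the miR-23 guide arms. In adherent culture, the miR-24-3p level was 3379, 3114, 3123 and 2922 CPM in the shNeg libraries, 2389, 2126, 1849.6 and 2702 CPM in the shRELA libraries and 2508, 2488, 2446 and 2394 CPM in the shRELB libraries. In spheroid culture it was 339, 986, 1064 and 1109 CPM with shNeg, 1205, 1392, 1359 and 1222 CPM with shRELA and 1389, 1391, 1826 and 1125 CPM with shRELB. The 12 spheroid libraries again lay below the 12 adherent ones, and adherent shNeg was highest with no overlap with the adherent knockdowns. The opposite arm of the miR-24-2 hairpin, miR-24-2-5p, had 1 count in 1 library, adherent shRELB replicate 2, and none in the other 23, so it was the only member that did not pass the filter for testing and nothing is said of its changes.

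**Figure D2:**
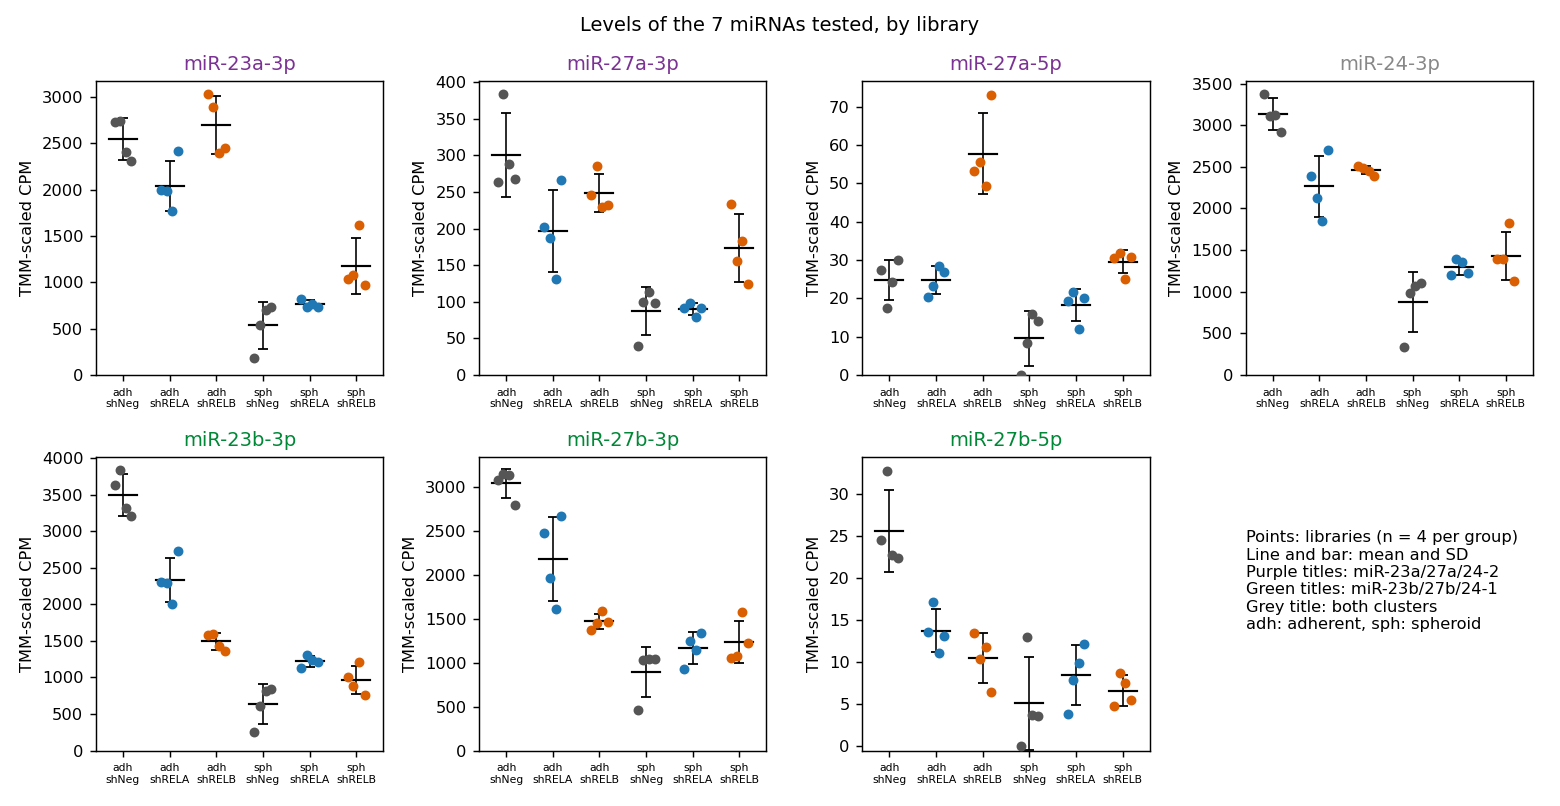
TMM-scaled CPM of the 7 members tested (vertical axes, linear, each on its own scale) in the 6 groups, with a point for each library and the mean and SD of 4 libraries. For each shRNA the mean of each guide (3p) arm is lower in spheroids (sph) than in adherent cells (adh), miR-23b-3p and miR-27b-3p step down from shNeg to shRELB in adherent culture, and miR-27a-5p is highest with shRELB.

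To see which differences exceeded the spread between replicates, the 905 miRNAs that reached 1 CPM in 4 or more libraries were fitted with edgeR's quasi-likelihood test. A miRNA was called at a false discovery rate (FDR, Benjamini-Hochberg over the 905) below 0.01 and a fold change above 2, the study's own thresholds. Values are log2 fold changes, negative where the level is lower, with their standard errors (SE).

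Growth as spheroids went with lower levels of both clusters in shNeg cells. All 7 members tested were called lower, where 20.9% of the miRNAs tested were called lower and 42.2% in either direction, and all 7 had no overlap between the groups, as did 47.5% of the miRNAs tested. The median log2 fold change of the members was -1.84, against -0.26 over all miRNAs tested. In the miR-23a cluster, miR-23a-3p changed by -2.24 (SE 0.25) and miR-27a-3p by -1.77 (SE 0.25), with edgeR quasi-likelihood FDRs of 3.82e-09 and 3.73e-07. The miR-23b cluster changed to a like extent, with miR-23b-3p at -2.46 (SE 0.23, edgeR FDR 7.06e-11) and miR-27b-3p at -1.77 (SE 0.21, edgeR FDR 9.66e-09). The shared miR-24-3p changed by -1.84 (SE 0.23, edgeR FDR 2.14e-08). The 5p arms of miR-27a and miR-27b changed by -1.33 (SE 0.39) and -2.38 (SE 0.48), with edgeR FDRs of 0.00439 and 6.91e-05. Without spheroid shNeg replicate 1, 6 of the 7 were still called, with -1.95 for miR-23a-3p, -2.20 for miR-23b-3p, -1.57 for miR-24-3p, -1.53 for miR-27a-3p, -1.55 for miR-27b-3p and -1.99 for miR-27b-5p, while miR-27a-5p was at -0.93 and no longer passed the fold threshold. The call of miR-27a-5p was also lost without adherent shNeg replicate 1 (-1.29, FDR 0.0109) or 4 (-1.23, FDR 0.0149). It was lost too with library totals (-0.87, edgeR FDR 0.0659) or a filter at a mean of 10 CPM (-0.98, edgeR FDR 0.0302). With only the groups compared, both miR-27a-5p (-1.06, edgeR FDR 0.229) and miR-27b-5p (-2.06, edgeR FDR 0.0372) lost their calls. As a share of all counts, which is a scaling by library totals, the 8 members took 1.17% ± 0.113 (SD, n = 4) of adherent shNeg libraries and 0.389% ± 0.166 of spheroid shNeg libraries, or 0.449% to 0.503% in the 3 libraries other than replicate 1. Of all calls in this comparison 50.5% were higher with TMM and 61.8% with library totals. Spheroid libraries were shallower throughout, and the part of depth in the difference was not tested.

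With either subunit silenced, the members called were again lower in spheroids, and their log2 fold changes are given here for each shRNA on its own. In shRELA cells 2 of the 7 were called, both of the miR-23a cluster and both lower, where 32.6% of the miRNAs tested were called and 15.8% were called lower. These were miR-23a-3p at -1.41 (SE 0.25, edgeR FDR 1.88e-05) and miR-27a-3p at -1.12 (SE 0.25, edgeR FDR 3.80e-04). The log2 fold changes of miR-23b-3p (-0.94), miR-27b-3p (-0.90) and miR-24-3p (-0.81) had edgeR FDRs of 7.62e-04, 5.15e-04 and 0.00302 but missed the fold threshold. These values lay near the threshold, and the call of miR-27a-3p was lost without adherent shRELA replicate 4 (-0.96), whereas miR-23b-3p and miR-27b-3p were both called without adherent shRELA replicate 3 (-1.01 and -1.03), spheroid shRELA replicate 3 (-1.06 and -1.01) or spheroid shRELA replicate 4 (-1.03 and -1.07). Without adherent or spheroid shRELA replicate 1, miR-23b-3p was called at -1.0. With all libraries, miR-23b-3p was called with median-ratio size factors or DESeq2 (-1.02 each). With no filter, both miR-23b-3p (-1.10) and miR-27b-3p (-1.055) were called. The call of miR-27a-3p was also lost with library totals (-0.94), a filter at a mean of 10 CPM (-0.92) or only the groups compared (-0.96). In shRELB cells only miR-23a-3p was called, at -1.20 (SE 0.25, edgeR FDR 1.99e-04), where 25% of the miRNAs tested were called and 11.4% were called lower. There miR-24-3p changed by -0.78 (edgeR FDR 0.00493), miR-23b-3p by -0.63 (edgeR FDR 0.0213), miR-27a-3p by -0.51 (edgeR FDR 0.0875) and miR-27b-3p by -0.25 (SE 0.20, edgeR FDR 0.330). The groups did not overlap for 5 of the 7 members with shRELA and 4 of the 7 with shRELB, where 46.3% and 41.5% of the miRNAs tested did not overlap. The median over the members was -0.90 with shRELA and -0.67 with shRELB, against 0.07 and -0.00281 over all miRNAs tested.

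In adherent cells, the guide arms of the miR-23b cluster were lower with RELB silenced, while those of the miR-23a cluster did not pass the test. The calls were 2 of 7, both lower, where 7.07% of the miRNAs tested were called and 3.54% were called lower. Of all calls, 50% were higher with TMM and 62.2% with library totals. The level of miR-23b-3p fell from 3498 ± 290.1 to 1493 ± 116 CPM (SD, n = 4), which is -1.23 on the log2 scale (SE 0.22, edgeR FDR 9.27e-05). That of miR-27b-3p fell from 3036 ± 166 to 1468 ± 88.9 CPM, a log2 fold change of -1.05 (SE 0.21, edgeR FDR 2.73e-04). The corresponding values of the miR-23a cluster were 0.08 (95% interval -0.41 to 0.57) for miR-23a-3p and -0.28 (-0.77 to 0.22) for miR-27a-3p, with edgeR FDRs of 0.881 and 0.533, and miR-24-3p was at -0.35 (edgeR FDR 0.346). The 5p arms had values of opposite sign, 1.22 (SE 0.34, edgeR FDR 0.0140) for miR-27a-5p and -1.28 (SE 0.40, edgeR FDR 0.0297) for miR-27b-5p. Both were called with no filter, DESeq2 or only the groups compared. Both were also called when spheroid shNeg replicate 1, a library outside this comparison, was left out of the fit (1.21, FDR 1.74e-05, and -1.28, FDR 7.98e-04). With library totals miR-27a-5p was called (1.35, edgeR FDR 0.00652) and miR-27b-5p was not (-1.16, edgeR FDR 0.0574). A filter at a mean of 10 CPM also gave a call of miR-27a-5p (1.30, edgeR FDR 0.00685). Levels did not overlap for miR-23b-3p, miR-27b-3p, miR-27b-5p, miR-27a-5p and miR-24-3p, 5 of 7 members, where 33.1% of the miRNAs tested did not. The fold change of miR-27b-3p lay near the threshold, and its call was lost with scaling by library totals (-0.92) or a filter at a mean of 10 CPM (-0.96).

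Silencing of RELA in adherent cells gave no call among the 7 members by edgeR's quasi-likelihood test, where 3.76% of the miRNAs tested were called. The lack of a call does not show that a level was unchanged. Log2 fold changes were -0.58 (SE 0.22, edgeR FDR 0.110) for miR-23b-3p, -0.48 (SE 0.20, edgeR FDR 0.181) for miR-27b-3p and -0.47 (SE 0.22, edgeR FDR 0.257) for miR-24-3p. The miR-23a cluster was at -0.32 (SE 0.24) for miR-23a-3p and -0.61 (SE 0.24) for miR-27a-3p, with edgeR FDRs of 0.532 and 0.137. The 5p arms were at -0.006 (SE 0.34, edgeR FDR 0.997) for miR-27a-5p and -0.90 (SE 0.39, edgeR FDR 0.204) for miR-27b-5p. DESeq2 and limma likewise called none. Levels did not overlap for miR-23b-3p, miR-24-3p, miR-27b-3p and miR-27b-5p, where 20.7% of the miRNAs tested did not. The median over the members was -0.48 and that over all miRNAs tested was 0.09. Of all calls, 29.4% were higher with TMM and 17.6% with library totals.

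In spheroids with RELB silenced, miR-23a-3p and miR-27a-5p of the miR-23a cluster were called higher, while miR-27a-3p, its other guide arm, was not. The calls were 2 of 7, both higher, where 13.4% of the miRNAs tested were called and 7.29% were called higher. These calls depended on the scaling, the filter and the libraries. That of miR-23a-3p was lost with median-ratio size factors (0.98), DESeq2 (0.98) or a filter at a mean of 10 CPM (0.96), and both were lost with library totals (0.84 for miR-23a-3p, edgeR FDR 0.016, and 1.29 for miR-27a-5p, edgeR FDR 0.0174) or only the groups compared (0.95, edgeR FDR 0.134, and 1.43, edgeR FDR 0.222). Of all calls, 54.5% were higher with TMM, 43.2% with median-ratio size factors and 34.1% with library totals. The level of miR-23a-3p was 1178 ± 301 CPM (SD, n = 4) against 538 ± 254 CPM with shNeg, or 1.13 on the log2 scale (SE 0.25, edgeR FDR 6.80e-04). The level of miR-27a-5p was 29.6 ± 3.04 against 9.59 ± 7.14 CPM, a log2 fold change of 1.58 (SE 0.40, edgeR FDR 0.00278). For miR-27a-3p the log2 fold change of 0.98 (SE 0.25, edgeR FDR 0.00365) missed the fold threshold. It passed that threshold, at 1.01 to 1.06, when replicate 2 or 3 of the spheroid shNeg group was left out, and when replicate 3 or 4 of the spheroid shRELB group was. With all libraries, limma called miR-27a-3p (1.045, limma FDR 0.0037). The miR-23b cluster was at 0.61 (SE 0.22, edgeR FDR 0.0388) for miR-23b-3p and 0.47 (SE 0.20, edgeR FDR 0.0900) for miR-27b-3p, and miR-24-3p was at 0.71 (SE 0.22, edgeR FDR 0.0158). Without spheroid shNeg replicate 1, miR-23a-3p was at 0.84 (FDR 1.06e-04) and lost its call on the fold threshold, miR-27a-5p kept its call at 1.19, and miR-27a-3p was at 0.74, miR-24-3p at 0.44, miR-23b-3p at 0.35 and miR-27b-3p at 0.25. The call of miR-27a-5p was lost without spheroid shNeg replicate 2 (1.49, FDR 0.0104) or spheroid shRELB replicate 2 (1.47, FDR 0.0105). Levels did not overlap for miR-23a-3p, miR-27a-3p, miR-27a-5p, miR-24-3p and miR-27b-3p, 5 of 7, where 17.3% of the miRNAs tested did not.

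Silencing of RELA in spheroids gave no call among the 7 members by edgeR's quasi-likelihood test, where 15.1% of the miRNAs tested were called. Here too, the lack of a call does not show that a level was unchanged. The largest value was that of miR-23b-3p, at 1219.8 ± 73.1 CPM (SD, n = 4) against 633 ± 272 CPM, and its log2 fold change of 0.95 (SE 0.22, edgeR FDR 0.00133) missed the fold threshold. It was called by limma at 1.08, while DESeq2 called none of the 7. It was at 0.68 without spheroid shNeg replicate 1, and it was called without spheroid shNeg replicate 3 (1.05) or 4 (1.08). Values were 0.57 (SE 0.22, edgeR FDR 0.0542) for miR-24-3p, 0.51 (SE 0.24, edgeR FDR 0.117) for miR-23a-3p, 0.38 (SE 0.20, edgeR FDR 0.164) for miR-27b-3p and 0.03 (SE 0.25, edgeR FDR 0.940) for miR-27a-3p. Without spheroid shNeg replicate 1 they were 0.30 for miR-24-3p, 0.22 for miR-23a-3p, 0.17 for miR-27b-3p and -0.21 for miR-27a-3p. The 5p arms were at 0.88 (SE 0.41, edgeR FDR 0.102) for miR-27a-5p and 0.79 (SE 0.51, edgeR FDR 0.258) for miR-27b-5p. Without that library these were 0.48 and 0.41. The sign of miR-27a-3p also turned under other scalings, and that of miR-27b-3p turned with library totals. Levels did not overlap for miR-23a-3p, miR-23b-3p and miR-24-3p, where 22.5% of the miRNAs tested did not. The scaling matters here, as the median over all 905 miRNAs was 0.09 with TMM and -0.25 with library totals, and 49.6% of calls were higher with the former and 19.1% with the latter. The split of calls in this comparison was 34.8% higher with median-ratio size factors.

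**Figure D3:**
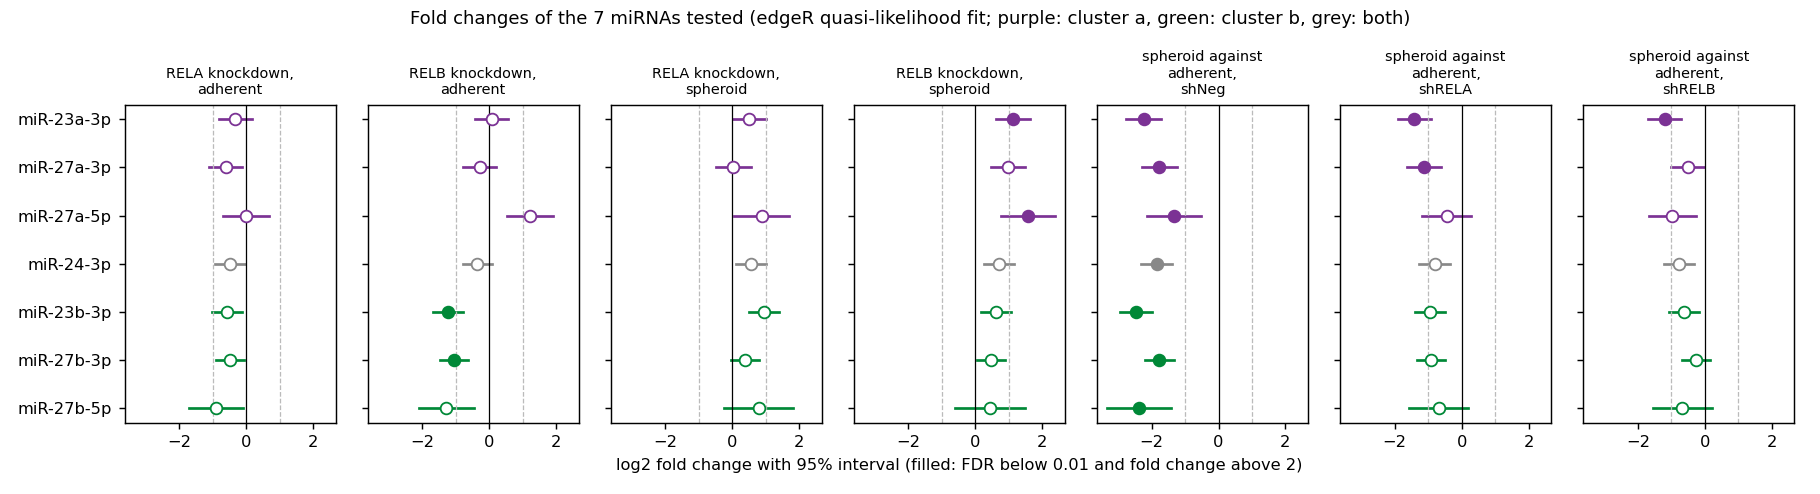
Log2 fold changes of the 7 members tested with 95% intervals (horizontal axis) in the 4 knockdown and 3 culture comparisons, by edgeR's quasi-likelihood fit, with filled points for those called and dashed lines at a fold change of 2. All 7 points are filled in spheroid against adherent shNeg cells, the miR-23b cluster guide arms alone are filled for RELB silencing in adherent cells, and miR-23a-3p and miR-27a-5p alone for RELB silencing in spheroids.

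Whether a knockdown changed a member differently in the 2 cultures was tested as an interaction, the change in spheroids minus the change in adherent cells on the log2 scale. For RELA, miR-23b-3p was called at 1.53 (SE 0.31, edgeR FDR 8.49e-04), 1 of 7 members where 7.62% of the miRNAs tested were called and 4.31% were called higher. For RELB, miR-23b-3p was called at 1.84 (SE 0.31, edgeR FDR 9.16e-05) and miR-27b-3p at 1.51 (SE 0.29, edgeR FDR 3.61e-04), 2 of 7 members where 8.51% were called and 4.64% were called higher. With library totals these values were 1.23 for RELA and 1.43 and 1.09 for RELB, and all were called. Over all miRNAs the scaling moved the split, as 56.5% of calls were higher for RELA and 54.5% for RELB with TMM, 34.8% and 41.9% with median-ratio size factors, and 27.5% and 19.1% with library totals, where the median log2 value of all miRNAs went from 0.17 and 0.15 to -0.10 and -0.26. Of the miR-23a cluster, miR-27a-3p was at 1.26 (SE 0.35, edgeR FDR 0.0106) and miR-23a-3p at 1.05 (SE 0.34, edgeR FDR 0.0314) for RELB, and miR-24-3p was at 1.06 (SE 0.31, edgeR FDR 0.0168). For RELA, miR-24-3p was at 1.03 (edgeR FDR 0.0231), miR-27b-3p at 0.86 (edgeR FDR 0.0408), miR-23a-3p at 0.83 (edgeR FDR 0.106) and miR-27a-3p at 0.65 (edgeR FDR 0.228). In the edgeR fit with TMM, the filter and all libraries, no interaction of a miR-23a cluster guide arm was thus called with either knockdown. For RELB with all libraries, miR-27a-3p was called with DESeq2 (1.124, DESeq2 FDR 0.00835). With no filter, both miR-27a-3p (1.32, edgeR FDR 0.00266) and miR-23a-3p (1.098, edgeR FDR 0.00273) were called for RELB. With library totals neither was called for RELB (0.8547, edgeR FDR 0.0987, and 0.6374, edgeR FDR 0.258). Without spheroid shNeg replicate 1, miR-23b-3p was at 1.27 for RELA and 1.58 for RELB, and miR-27b-3p was at 1.30 for RELB. These stayed called, and miR-27a-3p was called too for RELB (1.02, FDR 0.00643), while miR-24-3p was at 0.80 and miR-23a-3p at 0.76. For RELA without it, miR-24-3p was at 0.77, miR-27b-3p at 0.65, miR-23a-3p at 0.54 and miR-27a-3p at 0.41. For RELA, miR-24-3p was called without spheroid shNeg replicate 3 (1.19) or 4 (1.25), and miR-27b-5p without replicate 2 (2.72). For RELB, the calls rose to 5 without spheroid shNeg replicate 2, 3 or 4 and to 4 without spheroid shRELB replicate 4, and miR-27a-3p was called too without spheroid shRELB replicate 2 (1.39). The interactions, like the spheroid comparisons, rest on the shNeg spheroid libraries, which both knockdowns share.

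The knockdowns were set against each other directly, a comparison added after values were seen. In adherent cells, 1 of 7 members was called, miR-27a-5p, higher with shRELB by 1.22 (SE 0.34, edgeR FDR 0.00866), where 10.9% of the miRNAs tested were called and 6.63% were called higher, and this call was lost when any of the 8 libraries compared was left out (values of 1.08 to 1.29). Of all calls, 60.6% were higher with TMM and 78.3% with library totals. There miR-23b-3p was at -0.64 (SE 0.22, edgeR FDR 0.0300) and miR-27b-3p at -0.57 (SE 0.20, edgeR FDR 0.0380), lower with shRELB. In spheroids none was called by edgeR's quasi-likelihood test, where 6.63% of the miRNAs tested were called, and neither DESeq2 nor limma called one. Of all calls there, 58.3% were higher with TMM and 74.6% with library totals. The value of miR-27a-3p, 0.95 higher with shRELB (SE 0.25, edgeR FDR 0.00769), missed the fold threshold and passed it without spheroid shRELB replicate 3 (1.01) or 4 (1.07). Levels did not overlap for miR-23b-3p, miR-27a-5p and miR-27b-3p in adherent cells and for miR-23a-3p, miR-27a-3p and miR-27a-5p in spheroids, where 31.3% and 20.4% of the miRNAs tested did not.

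The clusters were then compared within each library, by the ratio of the paralogs, which needs no scaling between libraries. Ratios were taken with 0.5 counts added to each and tested on the log2 scale with 2-sided exact permutation tests. With 4 libraries against 4 such a test cannot give a p below 0.0286, and over the 28 tests of 4 ratios none had a Benjamini-Hochberg adjusted p below 0.05, so 12 further tests joined the cultures or the shRNAs as strata. Among the 28, a p of 0.0286 had an adjusted value of 0.100, 0.0571 one of 0.160 and 0.143 one of 0.282.

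The share of miR-23a-3p among the miR-23 guide arms was higher with RELB silenced, over both cultures together. In adherent culture miR-23a-3p made up 42.9, 41.7, 42.04 and 41.9% of miR-23a-3p and miR-23b-3p together with shNeg, 46.3, 46.6, 46.9 and 46.9% with shRELA and 65.8, 64.4, 62.6 and 64.4% with shRELB. In spheroids the shares were 41.2, 46.8, 46.2 and 46.5% with shNeg, 42.2, 36.1, 38.3 and 37.9% with shRELA and 50.8, 55.1, 57.2 and 55.9% with shRELB. The counts of miR-23a-3p exceeded those of miR-23b-3p in 8 of 8 shRELB libraries and in none of the other 16. The adherent means were 42.1% ± 0.533 with shNeg, 46.7% ± 0.285 with shRELA and 64.3% ± 1.31 with shRELB (SD, n = 4), and no 2 of these groups overlapped. The log2 ratio was higher with shRELB than with shNeg by 1.31 in adherent cells and 0.56 in spheroids (exact permutation p = 0.0286 for each), and by 0.93 over both cultures (exact permutation p = 4.08e-04, the smallest it can give, adjusted 0.0049). Without spheroid shNeg replicate 1 the values were 0.48 in spheroids and 0.89 over both. With shRELA it was higher by 0.26 in adherent cells (exact permutation p = 0.0286) and lower in spheroids, at -0.39 (exact permutation p = 0.0571), with -0.06 over both cultures (exact permutation p = 0.584, adjusted 0.728). These were -0.465 and -0.10 without that replicate. Spheroids had the lower ratio over all shRNAs, at -0.29 (exact permutation p = 0.00427, adjusted 0.0118), with -0.48 in shRELA and -0.57 in shRELB cells (exact permutation p = 0.0286 each) and 0.18 in shNeg cells (exact permutation p = 0.143). Without the replicate these were -0.26 over all shRNAs, with an adjusted exact permutation p of 0.0259, and 0.25 in shNeg cells.

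The miR-27 guide arms differed in the same direction with shRELB. In adherent culture miR-27a-3p made up 7.89, 10.9, 8.42 and 8.74% of the miR-27 guide arms with shNeg, 7.55, 8.70, 7.50 and 9.09% with shRELA and 15.2, 16.4, 12.6 and 13.7% with shRELB. In spheroids the shares were 7.86, 8.82, 9.82 and 8.71% with shNeg, 9.02, 7.30, 6.47 and 6.37% with shRELA and 18.2, 12.6, 10.4 and 9.20% with shRELB. The adherent shRELB libraries lay above the other adherent ones, while the shRELB and shNeg spheroids overlapped. The log2 ratio was higher with shRELB by 0.78 in adherent cells (exact permutation p = 0.0286) and 0.53 in spheroids (exact permutation p = 0.0571), and by 0.66 over both (exact permutation p = 8.16e-04, adjusted 0.0049), or 0.47 in spheroids and 0.63 over both without spheroid shNeg replicate 1. With shRELA it was at -0.22 over both cultures (exact permutation p = 0.0416, adjusted 0.0833), and the value of spheroids against adherent cells was -0.16 (exact permutation p = 0.147, adjusted 0.221), or -0.25 and -0.14 without that library. Recovery in a library also depends on how well each miRNA takes the adapters, so a share of 1 paralog is read between groups and not as its share in the cell.

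**Figure D4:**
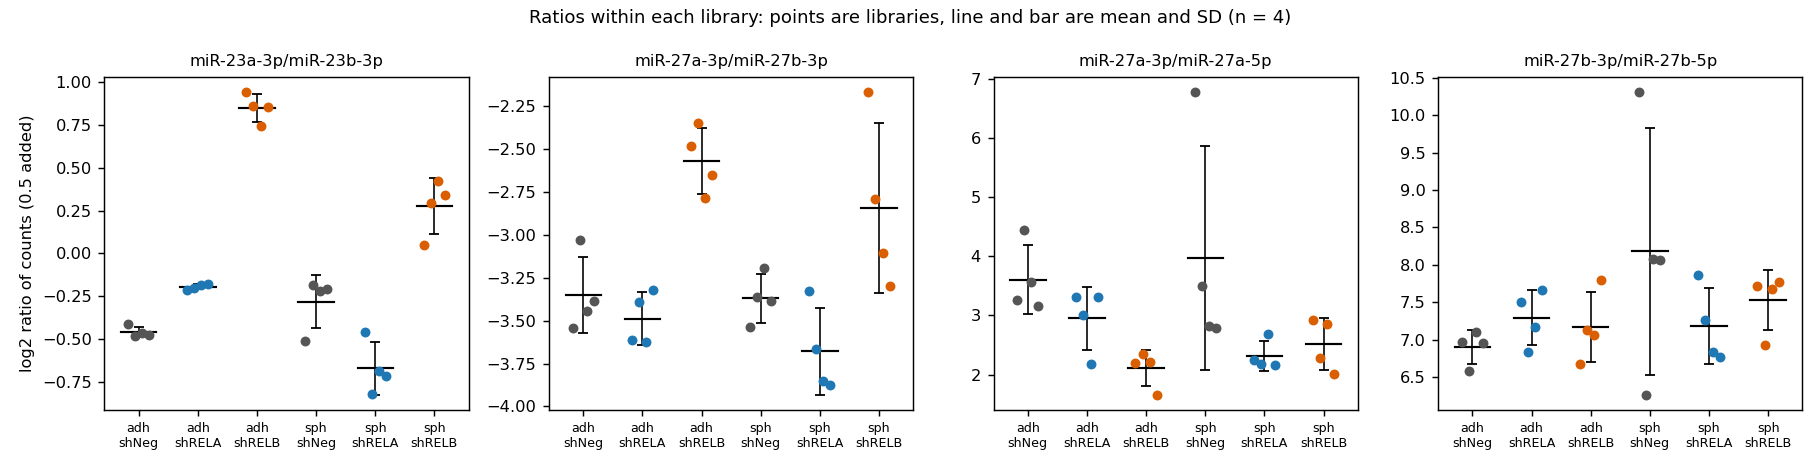
Log2 ratios of counts within each library (vertical axes, 0.5 counts added, each panel on its own scale) for miR-23a-3p to miR-23b-3p, miR-27a-3p to miR-27b-3p, miR-27a-3p to miR-27a-5p and miR-27b-3p to miR-27b-5p, with points for libraries and mean and SD of 4. The miR-23 ratio is above 0 in shRELB libraries alone, and the high point of the spheroid shNeg group in both right panels is replicate 1, which had no count of either 5p arm.

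The arms of the miR-27a hairpin also shifted against each other. The ratio of miR-27a-3p to miR-27a-5p was 9.59, 21.7, 11.9 and 8.91 in adherent shNeg, 9.91, 8.004, 4.55 and 9.898 in adherent shRELA and 4.61, 5.12, 4.65 and 3.17 in adherent shRELB libraries. In spheroids it was 109, 11.3, 7.03 and 6.902 with shNeg, 4.73, 4.52, 6.45 and 4.495 with shRELA and 7.598, 4.84, 7.22 and 4.03 with shRELB. The 109.0 is that of spheroid shNeg replicate 1, in which 54 counts of miR-27a-3p stand against 0 of miR-27a-5p, so its size is set by the 0.5 counts added. Over both cultures the log2 ratio was lower with shRELB, at -1.47 (exact permutation p = 0.00245, adjusted 0.0098), and with shRELA, at -1.15 (exact permutation p = 0.0049, adjusted 0.0118). Without that library the values were -1.01 and -0.69, with adjusted exact permutation p of 0.0163 and 0.022. Within a culture, the shRELB and shNeg groups did not overlap in adherent cells (-1.496, exact permutation p = 0.0286), nor did shRELA and shNeg in spheroids (-1.65, exact permutation p = 0.0286, and -0.72 without replicate 1). The groups did overlap for shRELA in adherent cells (-0.66, exact permutation p = 0.171) and for shRELB in spheroids (-1.45, exact permutation p = 0.171, and -0.52 without replicate 1). For miR-27b the counts of the 3p arm exceeded those of the 5p arm by 95.5 to 222 times in adherent libraries, and no difference of its arm ratio was found over strata (adjusted exact permutation p of 0.728 for RELA, 0.797 for RELB and 0.209 for culture, or 0.874, 0.667 and 0.318 without replicate 1).

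The 5p arms of the miR-23 hairpins, which are not members, were examined as the other products of the same transcripts. In the miR-23a hairpin, miR-23a-5p was at 1.66, 1.87, 1.61 and 1.203 CPM in adherent shNeg libraries and 8.802, 23.7, 11.3 and 9.13 CPM in spheroid shNeg libraries. It was thus higher in spheroids, by 3.04 (SE 0.48, edgeR FDR 1.89e-06), where its 3p arm was lower, at -2.24. In shRELA cells it was called higher too, at 1.80 (SE 0.47, edgeR FDR 0.00198), and in shRELB cells it was at 1.30 (edgeR FDR 0.0129). Its spheroid and adherent levels overlapped with shRELA but not with shNeg or shRELB. With shNeg it had 12 to 31 counts per spheroid library and 7 to 10 per adherent library. With shRELA it had 4 to 28 counts per spheroid library and 6 to 13 per adherent library, so the values of both shRNAs rest on few reads. In the miR-23b hairpin, miR-23b-5p was at 75.9, 61.6, 81.4 and 67.7 CPM in adherent shNeg and 67.5, 124, 123 and 114 CPM in spheroid shNeg libraries, a log2 fold change of 0.58 (SE 0.23, edgeR FDR 0.0290). With RELB silenced in adherent cells, miR-23a-5p was at 1.66 (SE 0.46, edgeR FDR 0.0126) and miR-23b-5p at -0.64 (SE 0.23, edgeR FDR 0.0589), the signs that the miR-27a and miR-27b 5p arms had there. In spheroids with RELB silenced, miR-23a-5p was at -0.08 (edgeR FDR 0.923) and miR-23b-5p at -0.49 (edgeR FDR 0.116). There miR-27a-5p was at 1.58 (edgeR FDR 0.00278) and miR-27b-5p at 0.43 (SE 0.51, edgeR FDR 0.558), and miR-27a-5p alone was called. Without spheroid shNeg replicate 1, miR-27a-5p was at 1.19 and miR-27b-5p at 0.05. The values of the miR-23 5p arms were not computed without spheroid shNeg replicate 1. The third such arm, miR-24-1-5p, had no count in any library.

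Few other miRNAs of the table share a seed with a member. With the seed of miR-23, miR-23c (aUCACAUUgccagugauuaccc) had a mean of 0.811 CPM and at most 9 counts in a library, and was called in no comparison. With the seed of miR-27, miR-9985 had a mean of 0.528 CPM and did not pass the filter.

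The pattern of each guide arm over the 6 groups was compared with that of 334 others whose mean reached 10 CPM, by the root mean square difference of the centred group means of log2(CPM + 1). Closest to miR-23b-3p was miR-27b-5p of its own cluster (0.100), followed by miR-22-3p (0.147) and miR-26a-5p (0.236), with miR-27b-3p ranked 6 and miR-23a-3p, its paralog, ranked 66. Closest to miR-23a-3p were miR-365a-3p and miR-365b-3p (0.193 each) and miR-10a-3p (0.196), with miR-24-3p ranked 14, miR-27a-3p ranked 16 and miR-23b-3p ranked 58. For miR-27a-3p these were miR-542-5p (0.0914), miR-365a-3p and miR-365b-3p (0.226 each), for miR-24-3p they were miR-21-3p (0.193), miR-31-5p (0.203) and miR-361-5p (0.226), and for miR-27b-3p they were miR-29c-5p (0.230), miR-148b-3p (0.248) and let-7i-3p (0.255). These are descriptions over 6 group means, which include spheroid shNeg replicate 1 and were not computed without it. The place of miR-27b-5p rests on few reads, at a mean of 11.6 CPM and 0 to 32 counts per spheroid library.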

How the data were processed

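MiR-seq libraries of OV90 cells (24 libraries, 6 groups of 4) were analysed, with groups taken from the sample labels. Per the labels, RNA was extracted with an RNeasy Mini Kit and libraries were made with the QIAseq miRNA kit, whose primer carries a unique molecular index, and whether reads with the same index were collapsed is not given in the sources used here. Adapters were trimmed by the authors with Cutadapt, and miRDeep2 matched the reads to miRBase on GRCh38. The table the authors deposited holds an estimated count for each mature miRNA, although it is titled as CPM: its columns sum to different totals, mostly of whole values. Values that were not whole (3.04% of non-zero values, on 84 miRNAs) were rounded.

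Counts were scaled by TMM, and 905 miRNAs that reached 1 CPM in 4 or more libraries were fitted with edgeR 4.0.16 (R 4.3.3) by its quasi-likelihood test on group alone (6 levels). They took 99.98% or more of every library. FDRs were taken over all 905, with calls at an FDR below 0.01 and a fold change above 2. SEs were taken from the F statistic. Ratios were tested in Python 3.11.15 with numpy 2.4.6 and pandas 2.3.3. Both scripts were tested on simulated data. No 2 libraries of a group agreed within sampling noise.

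The miRNAs named are all 8 members, the other arms of their hairpins, other miRNAs with a member's seed, and for each guide arm the 3 miRNAs with the closest pattern over the group means. The members, lists and tests were chosen with earlier results of these data known, and RELB against RELA was added after values were seen. Alternatives were median-ratio size factors, library totals, no filter, a mean of 10 CPM or more, DESeq2 1.42.0, limma 3.58.1 on log2(CPM + 1), only the groups compared, the replicate number as a block, other thresholds, and each library left out in turn, and for ratios 1 or 5 counts added, values not rounded, and each library left out. Stratified ratios without spheroid shNeg replicate 1 were added after seeing the data. Hairpin positions and mature sequences are from RefSeq on GRCh38.p14.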

Additional observations from a re-analysis of the deposited data

Results flagged for a closer look

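In groups of 4 libraries, a highest or lowest library that lay far from the rest was looked for among 66 groups of values, and 6 were found, where chance gives about 1 in 20. Spheroid shNeg replicate 1 was the low library for miR-24-3p (339 CPM, with 986 to 1109 in the other 3), for miR-27b-3p (464 CPM, with 1026 to 1041) and for the log2 ratio of miR-23a-3p to miR-23b-3p (-0.51). Spheroid shRELB replicate 3 was the high library for miR-23a-3p (1624 CPM, with 968.5 to 1080.3 in the other 3). Spheroid shRELA replicate 3 was the high library for the log2 ratio of miR-27a-3p to miR-27a-5p (2.69), and spheroid shRELB replicate 2 was the low one for the log2 ratio of miR-27b-3p to miR-27b-5p (6.93).

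The change with a knockdown differed between spheroid and adherent culture, by the interaction term of edgeR's quasi-likelihood fit, for miR-23b-3p with RELA silenced (1.53 on the log2 scale, SE 0.31) and for miR-23b-3p (1.84, SE 0.31) and miR-27b-3p (1.51, SE 0.29) with RELB silenced.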

How the results depend on the processing

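Of the members' log2 fold changes under the alternatives, 18 had the opposite sign, all of them values that were not called, 34 lost a call and 68 gained one. The cause of these changes was not tested, beyond the number of miRNAs, libraries or thresholds that an alternative sets. miR-24-2-5p was fitted only without the filter. Spheroid values are limited by depth, with 0 to 107 counts per library for the 5p arms of miR-27.

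For RELB silencing in adherent cells, the 2 members called became 4 with no filter, DESeq2, only the groups compared or an FDR below 0.05, and 2 to 4 with a library left out. For RELA silencing in spheroids, 0 became 1 with limma or no fold threshold, and 0 to 1 with a library left out. For RELB silencing in spheroids, 2 became 1 with median-ratio size factors, DESeq2 or a mean of 10 CPM or more, 0 with library totals or only the groups compared, and 1 to 3 with a library left out. For spheroid against adherent shRELA cells, 2 became 4 with no filter, 1 with a mean of at least 10 CPM, library totals or only the groups compared, 5 with no fold threshold, and 1 to 4 with a library left out. For shRELB cells, 1 became 2 with no filter or no fold threshold. For the RELA interaction, 1 became 2 with no filter or an FDR below 0.05, and 1 to 2 with a library left out. For the RELB interaction, 2 became 5 in both those settings, and 2 to 5 with a library left out. For RELB against RELA silencing, the 1 member called in adherent cells became 0 with median-ratio size factors, limma or the replicate block, and the 0 in spheroids became 1 with library totals or no fold threshold, each count running from 0 to 1 with a library left out.

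No pairing of the samples by replicate number was seen, as 7 of 28 pairs of same-numbered libraries had deviations correlated over 0.1 (lowest -0.52, highest 0.36) and in 0 of 7 comparisons did all pairs. With 4 libraries per group these correlations cannot show that the samples were unpaired. The replicate block changed the call of miR-27a-5p for RELB against RELA silencing in adherent cells (1.22, FDR 0.0143) and no other.

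Signs turned for miR-27a-5p with RELA silencing in adherent cells (0.064 with median-ratio size factors, 0.061 with DESeq2, 0.012 with limma, -0.23 to 0.098 with a library left out), for miR-23a-3p with RELB silencing in adherent cells (-0.014 with only the groups compared), for miR-27a-3p with RELA silencing in spheroids (-0.17 with a mean of 10 CPM or more, -0.13 with median-ratio size factors and with DESeq2, -0.39 with library totals, -0.21 to 0.13 with a library left out), for miR-27b-3p there (-0.033 with library totals), for miR-27a-5p in the RELB interaction (-0.058 with library totals, -0.023 to 0.84 with a library left out) and for miR-27b-3p in RELB against RELA silencing in spheroids (-0.038 to 0.15 with a library left out).

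Of the log2 ratios, those of the paralogs kept their sign in every alternative for all comparisons but one: miR-27a-3p to miR-27b-3p in spheroid against adherent shNeg cells (-0.020 with all libraries and 0.5 counts added) was 0.030 with 5 counts added and -0.085 to 0.086 with a library left out. The ratio of the miR-27a arms was -0.60 there with 5 counts added and -0.57 to 0.76 with a library left out, and over all shRNAs -0.049 with 1 count added, -0.32 with 5 and -0.27 without spheroid shNeg replicate 1. The ratio of the miR-27b arms was 0.28 for RELB silencing in spheroids with 5 counts added (-1.29 to 0.056 with a library left out), -0.34 to 0.025 in spheroid against adherent shRELA cells with a library left out, 0.15 over both cultures for RELA silencing with 5 counts added and 0.050 without spheroid shNeg replicate 1, 0.24 and 0.16 likewise for RELB silencing, and -0.074 for culture over all shRNAs with 5 counts added.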
